A study of Homo sapiens with 10 samples.

Results

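Melanoma cells of the line WM164 with a knockdown of the vitamin D receptor, VDR-KD, were compared with VDR-WT cells, which had received a scrambled sequence, in 5 matched treatments. Each of the 10 RNA-seq libraries is 1 genotype and 1 treatment, so every library of the series was used and no condition had a replicate. The treatments lasted 24 h and were 0.1% ethanol, the vehicle, or 100 nM of the hormone 1,25(OH)2D3, its precursor 25(OH)D3, or the hydroxyderivatives 20(OH)D3 and 1,20(OH)2D3. According to the labels the dishes were treated in triplicate, but 1 library stands for each condition and the sources used here do not say whether dishes were pooled. WM164 is an established human melanoma line, and the labels call the first group a VDR knockout and the second wild type, while the study calls the first a knockdown. No label names a second, independently made population of either kind, so an effect of the receptor cannot be told apart from other differences between the 2 cell populations.

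The features are 7594 gene entries of the 54826 in the table. Each carries the name of 1 protein-coding gene alone and had a mean of at least 5 FPKM (fragments scaled by gene length and by the fragments of the library) over the 10 libraries. At the edge of this limit, PRR5L lay just inside with a mean of 5.0021 FPKM, at 5.84 in VDR-KD and 4.16 in VDR-WT, and TRAPPC2 just outside with 4.9965 FPKM, at 5.72 and 4.28. A further 471 entries above the limit that merge a protein-coding name with another name, and 595 that merge several such names, were left out, since their genes share a value. Between 67.8% and 70.5% of all FPKM in a library belonged to the analyzed genes. Reads per library are not in the table, so the counting error of a value is not known and bears most on low values.

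The vitamin D receptor is a nuclear receptor that binds DNA with a retinoid X receptor and changes transcription when 1,25(OH)2D3 is bound. Melanoma cells express it, and hydroxylated forms of vitamin D are known there for slowing growth. The study calls their effect on pigment synthesis controversial. Below, fold changes are log2 of FPKM plus 0.1 in VDR-KD minus VDR-WT, a scale on which changes of low genes come out too small. The test was limma with treatment as a block over 14689 entries, and a gene was called higher or lower in VDR-KD at a Benjamini-Hochberg adjusted p under 0.05. Such a p measures how far the difference varied over the 5 treatment pairs, which differ in treatment and are not repeats.

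VDR itself (chromosome 12, 47841537 to 47943048), which encodes the receptor, was at 13.6, 12.1, 13.2, 11.96 and 14.8 FPKM in the VDR-KD libraries and 9.63, 7.55, 6.75, 9.03 and 5.54 FPKM in the VDR-WT libraries. Here and below values run in the order ethanol, 1,25(OH)2D3, 1,20(OH)2D3, then 25(OH)D3, then 20(OH)D3. The groups did not overlap, and the mRNA was higher in the libraries labelled VDR-KD, with a fold change of 0.78 ± 0.143 (SE, limma adjusted p = 0.006). The direction is the reverse of what the label names, and directions below therefore refer to the labels. Without the unmatched libraries described next, the value was 0.52 and no longer passed (adjusted p = 0.0562 from limma). That value rests on the ethanol, 1,25(OH)2D3 and 25(OH)D3 pairs alone. A level of mRNA does not measure the receptor protein, which the table does not hold.

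Heat shock genes set libraries apart. HSPA6, an inducible HSP70 chaperone, was at 32.3, 0.720, 0.468, 44.5 and 31.6 FPKM in the VDR-KD libraries and 9.37, 0.176, 6.71, 15.7 and 0.655 FPKM in the VDR-WT libraries. It was low with 1,25(OH)2D3 in both groups, and also in VDR-KD with 1,20(OH)2D3 and in VDR-WT with 20(OH)D3, whose partners of the same treatment were not low. These last 2 are called the unmatched low libraries below. ARC, an immediate early gene, and MMP3, a collagenase activator, were low in the same 4 libraries. Of 10 melanocytic markers 9 reached the limit of 5 FPKM, with PMEL at 3978 ± 699.8 (SD, n = 5) and 4694 ± 429 FPKM (SD, n = 5) for VDR-KD and VDR-WT, while TYRP1 was near absent, at means of 0.537 and 0.867 FPKM. At under 0.1 FPKM in every library were 4 of 10 keratinocyte, 2 of 10 fibroblast, 1 of 8 endothelial and 4 of 10 leukocyte markers. Of the markers of other cells, KRT10, LUM, KDR and CD33 reached the limit of 5 FPKM, and LUM, KDR and CD33 were higher in VDR-KD by 0.35, 1.48 and 3.01. Below that limit the fibroblast markers DCN and FAP were called lower and higher, at -1.20 and 1.19, and the leukocyte marker LYZ higher, at 0.71, so the fibroblast markers did not move together. Their part in other results was not tested.

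Differences between VDR-KD and VDR-WT were many and small. Of the 7594 genes, 1201 (15.8%) were called higher and 912 (12%) lower in VDR-KD, against 1925 (13.1%) and 1422 (9.68%) of all entries in the fit. Counts of gene lists below are to be read beside these shares of the 7594. The median absolute fold change was 0.16, and 79.1% of the 2113 called genes changed by less than 1.5-fold. Over 2-fold there were 54 higher and 20 lower genes. All 5 VDR-KD libraries lay above all 5 VDR-WT libraries for 818 genes (10.8%) and below them for 492 (6.48%). Without the unmatched low libraries (VDR-KD 1,20(OH)2D3 and VDR-WT 20(OH)D3), the calls fell to 419 higher and 234 lower, of which 413 and 226 were also called with all libraries. With treatment as a block, that fit rests on the ethanol, 1,25(OH)2D3 and 25(OH)D3 pairs alone, so fewer genes can pass. Medians of lists moved less than calls, from 0.44 to 0.46 for cholesterol synthesis and from -0.18 to -0.16 for the cytosolic ribosome. The part of the lost pairs in the fall of calls was not tested. The split of the calls depends on the scaling. As deposited 56.8% of the calls were higher, and with each library centered on its median 45.5% were, with 1013 higher and 1211 lower.

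**Figure D1:**
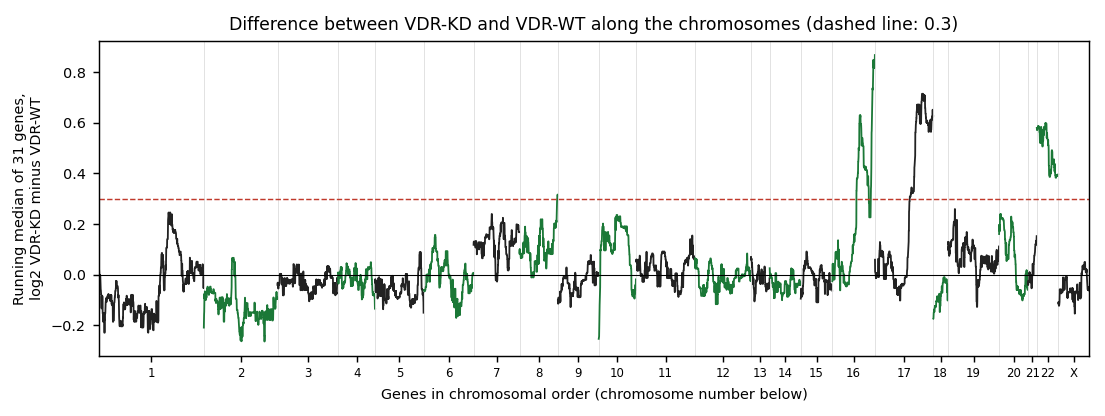
Running median over 31 neighboring genes of the log2 difference between VDR-KD and VDR-WT (vertical axis) for the genes of each chromosome in their order (horizontal axis), with alternating colors for chromosomes and a dashed line at 0.3. The line lies above 0.3 over long runs on chromosomes 16, 17 and 22 and crosses it elsewhere only briefly, on chromosome 8.

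The rises were not spread evenly over the genome. In 4 long stretches of neighboring genes most genes were somewhat higher in VDR-KD. A stretch was taken as at least 15 genes in a row at which the median of 31 neighbors was 0.3 or more, a limit set after the values had been seen, so the counts within stretches are a description. On chromosome 16 a first stretch runs from SALL1 to CENPN (GRCh38, 51135975 to 81033114) with 95 genes, of which 74 were called higher and 0 lower, and a median of 0.49. A second runs from MTHFSD to PRDM7 (86530176 to 90092072), where 27 of 31 genes were called higher and 1 lower, with a median of 0.74. On chromosome 17 the stretch from SP2 to METRNL (47896150 to 83095119) had 155 of 180 genes called higher and 0 lower, and 179 of the 180 had a value above 0. On chromosome 22 all 165 genes, from IL17RA to RABL2B (17084954 to 50783663), formed 1 stretch, with 132 called higher, 2 lower and a median of 0.50, which is 1.42-fold.

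Together the stretches held 471 genes, 6.203% of those analyzed, and 388 of the 1201 higher calls, or 32.3%. Among the 321 genes called over 1.5-fold higher, 194 lay in a stretch. In the 7122 genes outside, 813 (11.4%) were called higher and 909 (12.8%) lower, and the median fold change was -0.01. The stretches can be found from 4 treatment pairs and read in the pair left out, whose 2 libraries then do not place them, although the limit itself was set with all pairs seen. The left-out median was 0.45 with ethanol, 0.56 with 1,25(OH)2D3, 0.57 with 1,20(OH)2D3, 0.51 with 25(OH)D3 and 0.48 with 20(OH)D3. Between 92.1% and 96.6% of the genes in a stretch had a value above 0 in the pair left out. The 4 stretches are thus seen in each pair alone, and outside them the left-out medians ran from -0.02 to 0.02. The table holds RNA only, and no readout of the DNA of these regions was used here.

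**Figure D2:**
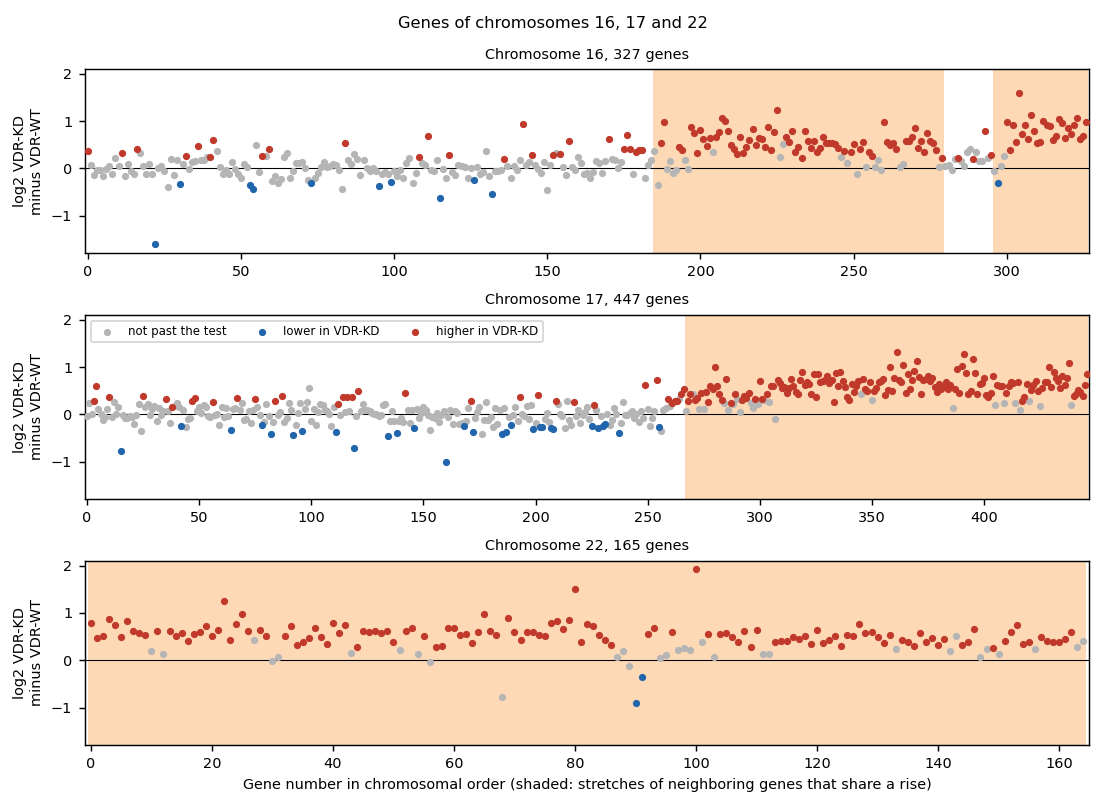
Log2 difference between VDR-KD and VDR-WT (vertical axis) of every analyzed gene on chromosomes 16, 17 and 22 in chromosomal order (horizontal axis), 1 point a gene, colored by the limma call, with the stretches shaded. Points sit around 0 to the left of the shaded parts of chromosomes 16 and 17 and around 0.5 to 0.7 within them, and the whole of chromosome 22 is shaded.

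Within the stretches the shift took in genes of unrelated roles. GRB2 (chromosome 17, 75318076 to 75405709), the adaptor that links growth factor receptors to RAS, was at 84.7, 89.8, 98.7, 111 and 109 FPKM in the VDR-KD libraries and 52.996, 54.9, 56.3, 61.4 and 57.3 FPKM in the VDR-WT libraries, with a fold change of 0.80 ± 0.0552 (SE, limma adjusted p = 0.000106). H3F3B, which encodes histone H3.3, was at 373, 338, 386, 404 and 403 FPKM in the VDR-KD libraries and 206, 209, 232, 207 and 259 FPKM in the VDR-WT libraries, with a fold change of 0.78 ± 0.0560 (SE, limma adjusted p = 0.000131). For both genes the 2 groups lay apart. PRAME (chromosome 22, 22547701 to 22559361), an antigen of melanoma and testis, was at 191, 231, 226, 201 and 199.7 FPKM in the VDR-KD libraries and 126, 143, 148, 131 and 136 FPKM in the VDR-WT libraries, again with no overlap and a fold change of 0.61. EIF3D, a subunit of a translation initiation factor, had a fold change of 0.51, GOT2, the mitochondrial aspartate aminotransferase, 0.83, SAP30BP, a transcription regulator, 0.81, and SLC25A1, the mitochondrial citrate carrier, 0.75. Not every gene shared it. SOX10, the lineage factor of melanocytes on chromosome 22, had a fold change of 0.07 (95% interval -0.09 to 0.23, adjusted p = 0.54 from limma).

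Weaker shifts covered other chromosomes. Outside the stretches, both parts of chromosome 7, split at its middle gene, had a median of 0.13, with 89 of 352 genes called higher and 15 lower. On the first part of chromosome 20 the median was 0.16, and 45 of 110 genes (40.9%) were called higher. The second part of chromosome 2, from RANBP2 to D2HGDH, had a median of -0.15, with 91 of 283 genes (32.2%) called lower and 10 higher, and the first part of chromosome 1 a median of -0.12, with 106 of 403 (26.3%) lower. Over 50 genes in a row, the lowest median was -0.22, from UNC50 to RALB on chromosome 2, where 18 genes were called lower and 1 higher. NPAS2, a partner of the clock protein ARNTL, was among them at -0.75, with RPL31 at -0.57 and RALB, a small GTPase, at -0.46.

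Among cell states, genes of DNA replication stood higher in VDR-KD. Cells license origins in G1 with the MCM helicase, loaded by CDC6 and CDT1, and E2F transcription factors raise these genes and those of nucleotide supply at the entry into S phase. Of 40 analyzed genes of replication and the G1/S transition, 26 were called higher, 0 lower and 14 did not pass, and the median was 0.29. Outside the stretches it was 21 of 35 with a median of 0.26, beside 11.4% of all genes outside. MCM5 (chromosome 22, 35400063 to 35425430), a helicase subunit, was at 56.6, 68.7, 78.1, 75.4 and 71.6 FPKM in the VDR-KD libraries and 35.1, 36.9, 40.1, 38.04 and 36.3 FPKM in the VDR-WT libraries, with a fold change of 0.90 ± 0.0613 (SE, limma adjusted p = 9.9e-05). E2F1 (chromosome 20, 33675683 to 33686404), a founding member of its family, was at 15.3, 15.6, 16.6, 17.2 and 16.1 FPKM in the VDR-KD libraries and 8.91, 8.18, 8.61, 10.7 and 8.77 FPKM in the VDR-WT libraries, with a fold change of 0.84 ± 0.0750 (SE, limma adjusted p = 0.000283). In both genes each VDR-KD library lay above each VDR-WT library. MCM5 lies in the stretch on chromosome 22, whose genes share a rise. E2F1 lies outside the stretches, but in the first part of chromosome 20, where 40.9% of genes were called higher.

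CDT1 and TK1, the thymidine kinase of S phase, were higher by 1.122 and 0.88 and lie in the stretches on chromosomes 16 and 17. Beyond the stretches, RRM2 (chromosome 2, 10120698 to 10131419), the small subunit of ribonucleotide reductase, was at 168, 189, 172, 195 and 186 FPKM in the VDR-KD libraries and 139, 158, 128, 112 and 122 FPKM in the VDR-WT libraries, with a fold change of 0.47 ± 0.0816 (SE, limma adjusted p = 0.00473). PCNA, the sliding clamp of the polymerases, was at 230.5, 219, 209, 229.9 and 242 FPKM in the VDR-KD libraries and 168, 167, 178, 161 and 183 FPKM in the VDR-WT libraries, with a fold change of 0.40. Neither RRM2 nor PCNA overlapped between the groups, and PCNA, like E2F1, lies in the first part of chromosome 20. TYMS, thymidylate synthase, had a fold change of 0.27, CCNE2, a cyclin of the G1/S step, 0.59, and MCM10, which acts as the helicase starts, 0.67. MCM6 is an exception among the helicase subunits. It was at 56.4, 50.3, 56.6, 56.1 and 58.5 FPKM in the VDR-KD libraries and 54.1, 53.9, 56.3, 52.3 and 57.1 FPKM in the VDR-WT libraries, the groups overlapped, and the fold change was 0.02 (95% interval -0.10 to 0.14). In bulk RNA, more cells in S phase and more RNA per cell cannot be told apart. Without the unmatched low libraries, 8 of the 40 were called and the median was 0.27.

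E2F factors bind a motif written here as TTTNGCGC, where N is any base, searched on both strands, with overlapping matches counted. Of the 40 genes, 34 had a RefSeq promoter of 300 bases (GRCh38.p14), and 15 of these (44.1%) held the motif, against 3.203% of the 6181 promoters of analyzed genes. It was in 9 of the 22 promoters of genes called higher, a share no larger than in all 34. These letters were thus more frequent in the list than in all promoters, and no more frequent among the members called higher. Other forms of the E2F motif were not searched for, so the shares hold for this string only. Stretches of 4 promoters of higher genes with the motif, 120 bases long and beginning 90 bases before the start of transcription, are shown beside 100 bases of MCM6, which begin 160 bases before its start and whose mRNA did not pass the test, so that the sites can be compared. Capitals mark matches, and each line is written 5′ to 3′ along the gene.
E2F1: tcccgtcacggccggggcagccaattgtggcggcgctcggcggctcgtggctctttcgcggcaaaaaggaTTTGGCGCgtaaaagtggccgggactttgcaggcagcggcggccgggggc
CDC6: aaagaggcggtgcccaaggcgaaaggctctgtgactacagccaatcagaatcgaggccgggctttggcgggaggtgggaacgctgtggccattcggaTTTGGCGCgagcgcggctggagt
MCM3: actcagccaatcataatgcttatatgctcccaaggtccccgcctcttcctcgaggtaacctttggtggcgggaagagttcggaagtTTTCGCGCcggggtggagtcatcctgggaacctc
POLE2: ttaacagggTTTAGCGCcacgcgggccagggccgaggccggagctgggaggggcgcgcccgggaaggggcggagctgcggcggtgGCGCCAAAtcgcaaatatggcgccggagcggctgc
MCM6: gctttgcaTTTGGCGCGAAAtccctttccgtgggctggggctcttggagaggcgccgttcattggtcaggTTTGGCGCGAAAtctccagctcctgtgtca
E2F1 (minus strand of chr20:33686356-33686475) and MCM3 (minus strand of chr6:52284713-52284832) hold 1 match each near the start, and their fold changes were 0.84 and 0.33. CDC6 (plus strand of chr17:40287789-40287908) also holds 1, with a fold change of 0.42. POLE2 (minus strand of chr14:49688185-49688304), a subunit of DNA polymerase epsilon, holds 2 separate matches on opposite strands, with a fold change of 0.54. In MCM6 (minus strand of chr2:135876504-135876603) 4 matches form 2 overlapping pairs, 1 on each strand in each pair. A match is a description of the letters, not a site of binding.

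Genes of mitosis did not rise with those of replication. Of 58 genes of mitosis and G2/M, 4 were called higher and 12 lower, with a median of -0.07, and both higher genes of the stretches, CENPM and BIRC5, are among the 4. BUB1 (chromosome 2, 110637698 to 110678114), a kinase of the spindle checkpoint, was at 57.1, 72.7, 65.7, 62.2 and 63.2 FPKM in the VDR-KD libraries and 65.6, 96.7, 78.9, 75.5 and 83.2 FPKM in the VDR-WT libraries, with a fold change of -0.31 ± 0.0530 (SE, limma adjusted p = 0.00446). TTK, the checkpoint kinase MPS1, was at 27.3, 28.8, 30.8, 26.9 and 28.9 FPKM in the VDR-KD libraries and 33.7, 36.8, 36.9, 34.1 and 34.7 FPKM in the VDR-WT libraries, with a fold change of -0.30. TTK did not overlap between groups, while for BUB1 the ethanol library of VDR-WT lay below 2 VDR-KD libraries of other treatments. BUB1 lies between UNC50 and RALB on chromosome 2, in the run of genes with the lowest median (-0.22). CDK1, the kinase that drives mitosis, was lower at -0.30, TOP2A, which untangles chromosomes, at -0.27, and CCNB2, a partner of CDK1, at -0.26. MKI67, the proliferation marker Ki-67, did not pass (fold change 0.10, 95% interval -0.10 to 0.30). The median difference of the list was 0.00 and 0.01 with ethanol and 25(OH)D3 and between -0.15 and -0.09 in the other 3 pairs. In the fit without the unmatched low libraries, 2 were called higher and 0 lower, and without any 1 pair 6 to 11 were lower.

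In a list of cyclins, their kinases, the inhibitors of these and related factors, 4 of 22 genes were called higher and 9 lower, with a median of -0.20. Without the unmatched low libraries 3 were higher and 5 lower. CDKN1B (chromosome 12, 12715058 to 12722371), which encodes the inhibitor p27, was at 21.4, 24.3, 21.8, 21.5 and 26.2 FPKM in the VDR-KD libraries and 28.1, 33.8, 33.8, 31.04 and 33.6 FPKM in the VDR-WT libraries, with a fold change of -0.48 ± 0.0639 (SE, limma adjusted p = 0.00156). CCNG2, a cyclin known for being raised in resting cells, was at 14.1, 18.05, 15.7, 15.96 and 20.8 FPKM in the VDR-KD libraries and 24.7, 28.8, 29.4, 25.7 and 27.4 FPKM in the VDR-WT libraries, with a fold change of -0.69. All VDR-KD values of both genes lay below all VDR-WT values. CCNG1, a p53 target, had a fold change of -0.51, CDKN2A, which encodes p16, -0.33, CDK2, the kinase of S phase, -0.33, and CCND1, cyclin D1, -0.25. Of the 4 higher genes RBL2 and E2F4, which act together in resting cells, lie in the stretch on chromosome 16, and RBL1 and CDK5 lie outside the stretches at 0.61 and 0.36. RBL1, RBL2 and E2F4 are neither cyclins nor kinases.

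**Figure D3:**
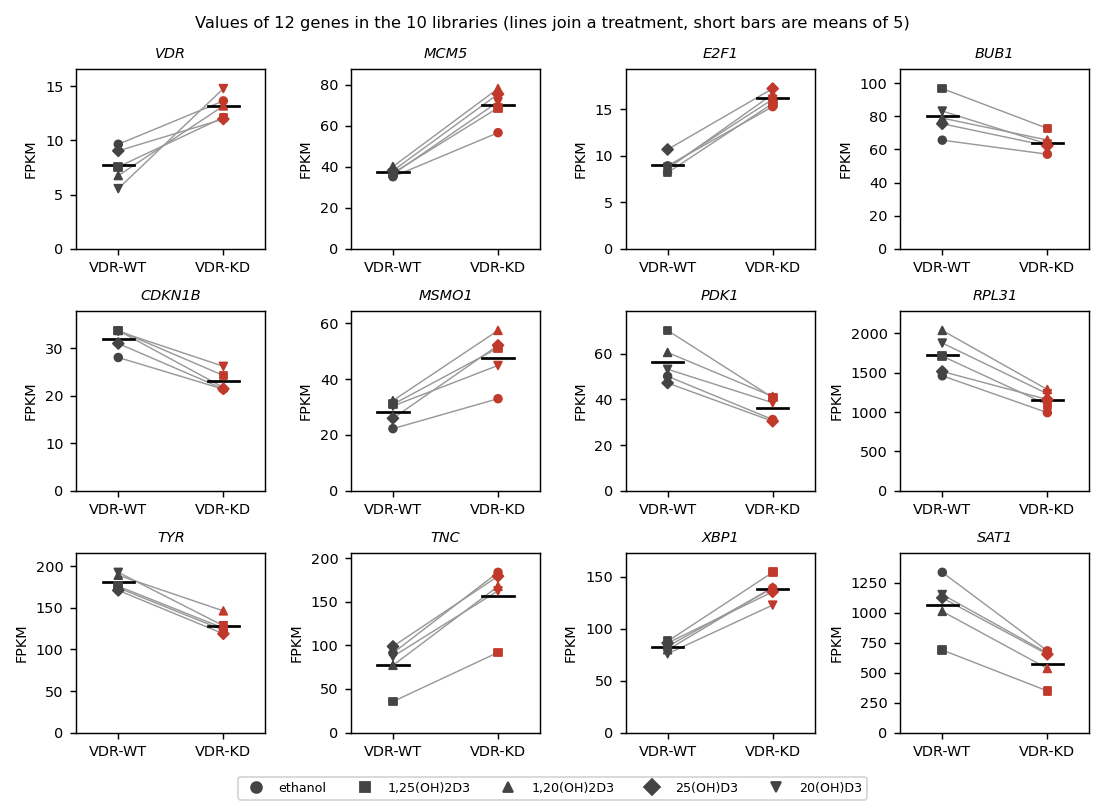
FPKM (vertical axis, linear and from 0) of 12 genes in the 5 VDR-WT libraries (gray) and the 5 VDR-KD libraries (red), with a line joining the libraries of 1 treatment, a marker shape for each treatment and a short black bar at the mean of 5. The lines run upward for VDR, MCM5, E2F1, MSMO1, TNC and XBP1 and downward for BUB1, CDKN1B, PDK1, RPL31, TYR and SAT1 in all 5 treatments.

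Most analyzed enzymes of cholesterol synthesis were called higher. Cells low in sterols move the transcription factor SREBF2 from the ER to the nucleus, where it raises the enzymes from HMGCS1 to DHCR7. Of 18 analyzed enzymes, 12 were called higher and 0 lower, all 18 had a value above 0 and the median was 0.44. Outside the stretches 11 of 17 were higher, since MVD alone lies in one. With the unmatched low libraries left out 6 of the 18 were called, with a median of 0.46. MSMO1 (chromosome 4, 165327623 to 165343160), a sterol methyl oxidase, was at 32.98, 51.2, 57.5, 52.1 and 44.9 FPKM in the VDR-KD libraries and 22.2, 30.96, 32.3, 25.9 and 30.4 FPKM in the VDR-WT libraries, with a fold change of 0.74 ± 0.0769 (SE, limma adjusted p = 0.000528). INSIG1 (chromosome 7, 155297776 to 155310235), which holds SREBF2 in the ER and is itself raised by it, was at 82.5, 125, 115, 102 and 106 FPKM in the VDR-KD libraries and 41.8, 69.9, 58.5, 43.6 and 54.7 FPKM in the VDR-WT libraries, with a fold change of 0.99 ± 0.0620 (SE, limma adjusted p = 8.48e-05). Neither gene overlapped between the groups. SQLE, squalene epoxidase, had a fold change of 0.56, and FDPS, farnesyl diphosphate synthase, 0.53.

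The rise of the sterol genes differed in size between pairs. The median of the list was 0.31 with ethanol, 0.43 with 1,25(OH)2D3, 0.54 with 1,20(OH)2D3, 0.62 with 25(OH)D3 and 0.27 with 20(OH)D3. In the wider set of SREBP control and LDL uptake, 5 of 12 were called higher and 2 lower, and 3 and 0 without the unmatched low libraries. MYLIP, a ubiquitin ligase, was lower at -0.54, and INSIG2 at -0.30. Of 14 genes of fatty acid synthesis, 7 were called higher and 0 lower, or 2 and 0 without those libraries, with SCD, the stearoyl-CoA desaturase, at 0.42, ACSS2, which makes acetyl-CoA from acetate, at 0.55 and FASN, the fatty acid synthase in the stretch on chromosome 17, at 0.77. Of 13 genes of fatty acid oxidation 4 were called higher and 1 lower, or 1 and 0 without them, with CPT1A, the entry of fatty acids into mitochondria, at 0.84.

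A core of the sterol regulatory element, searched as TCACNCCA on both strands, lay in 2 of the 13 matched promoters of the synthesis enzymes (15.4%), against 3.25% of 6181. Both are shown, with the match in capitals.
MSMO1: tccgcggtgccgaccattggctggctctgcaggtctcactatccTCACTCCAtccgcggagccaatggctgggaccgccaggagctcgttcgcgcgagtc
MVK: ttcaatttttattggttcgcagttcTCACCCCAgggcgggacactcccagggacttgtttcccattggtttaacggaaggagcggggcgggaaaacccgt
The match in MSMO1 (plus strand of chr4:165327469-165327568) starts at position -156 from the start of transcription and that in MVK (plus strand of chr12:109573574-109573673), which encodes mevalonate kinase, at position -195. Their fold changes were 0.74 and 0.52. The other 11 promoters did not hold these letters in the 300 bases searched.

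Among genes of glycolysis and of the response to low oxygen, calls were lower only, for up to 50% of a list. Low oxygen stabilizes HIF factors, which raise glucose uptake, glycolysis and kinases that keep pyruvate out of mitochondria. Of 18 genes of the hypoxia response, 9 were called lower and 0 higher, with a median of -0.30, and of 18 of glycolysis, 7 lower and 0 higher, with a median of -0.13. Without the unmatched low libraries 4 and 2 were called lower, and without the treatment block 6 and 3. PDK1 (chromosome 2, 172555373 to 172608669), a kinase that shuts off pyruvate dehydrogenase, was at 31.2, 40.8, 41.3, 30.4 and 38.6 FPKM in the VDR-KD libraries and 50.1, 70.3, 60.6, 47.2 and 53.2 FPKM in the VDR-WT libraries, with a fold change of -0.62 ± 0.0616 (SE, limma adjusted p = 0.000436). SLC2A3 (chromosome 12, 7919230 to 7936275), a glucose transporter, was at 53.4, 45.5, 67.7, 57.4 and 73.2 FPKM in the VDR-KD libraries and 95.6, 77.2, 96.5, 89.2 and 109 FPKM in the VDR-WT libraries, with a fold change of -0.67 ± 0.0610 (SE, limma adjusted p = 0.000311). Both were lower in every VDR-KD library than in every VDR-WT library. PDK1 lies in the second part of chromosome 2, where 32.2% of genes were called lower. P4HA1, a collagen prolyl hydroxylase, had a fold change of -0.47, BNIP3, a mitophagy receptor, -0.51, HK2, hexokinase, -0.33, and GAPDH, a glycolytic enzyme, -0.27.

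VEGFA, the vascular growth factor, and SLC2A1, the other main glucose transporter, did not pass, at -0.16 and -0.18. The median of the hypoxia list was -0.49 with ethanol, -0.25 with 1,25(OH)2D3, -0.36 with 1,20(OH)2D3, -0.23 with 25(OH)D3 and -0.08 with 20(OH)D3. The fall was thus largest in the vehicle pair and least with 20(OH)D3, and each of these medians rests on 1 library a side. In the TCA cycle 4 of 22 genes were called higher and 1 lower, with IDH2, the mitochondrial isocitrate dehydrogenase, at 0.55. Nuclear subunits of complex I gave 3 higher and 1 lower of 26, and those of complexes III and IV 2 higher and 1 lower of 17. The shares called higher, 18.2%, 11.5% and 11.8%, were near or below the 15.8% of all genes analyzed.

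Of the cytosolic ribosomal proteins more than 50% were called lower. Of 77 cytosolic ribosomal protein genes, 30 lie in merged entries and 47 were analyzed, of which 26 were called lower, 2 higher and 19 did not pass, with a median of -0.18. The 2 higher genes, RPL13 and RPL38, are the only members in the stretches, and outside them it was 26 lower and 0 higher of 45. RPL31 (chromosome 2, 101001715 to 101024032), of the large subunit, was at 992, 1092, 1287, 1159 and 1232 FPKM in the VDR-KD libraries and 1461, 1711, 2038, 1516 and 1878 FPKM in the VDR-WT libraries, with a fold change of -0.57 ± 0.0504 (SE, limma adjusted p = 0.000258). RPL13 (chromosome 16, 89560657 to 89566828), in the second stretch on chromosome 16, was at 918, 1119, 1281, 1157 and 1347 FPKM in the VDR-KD libraries and 649.8, 682, 728, 716 and 823 FPKM in the VDR-WT libraries, with a fold change of 0.69 ± 0.0513 (SE, limma adjusted p = 0.000147). The groups did not overlap in either gene, in opposite directions. RPL11, which also binds MDM2, had a fold change of -0.51, and EEF1A1, the elongation factor that brings tRNAs to the ribosome, -0.20.

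Without the unmatched low libraries only 3 ribosomal proteins were called lower, with a median of -0.16, and without the replicate block 11 were. With libraries centered on their median 36 were lower. Pseudogenes of these proteins are many, and reads may be split between them. EEF1A2, the isoform of EEF1A1 in muscle and nerve, was at 156, 147, 182, 157 and 183 FPKM in the VDR-KD libraries and 61.4, 49.7, 66.4, 65.1 and 65.97 FPKM in the VDR-WT libraries, with a fold change of 1.42 ± 0.0558 (SE, limma adjusted p = 1.82e-05). RPL22L1, a paralog of RPL22, was at 211, 204, 197, 213 and 210.1 FPKM in the VDR-KD libraries and 81.6, 88.3, 86.3, 72.4 and 87.7 FPKM in the VDR-WT libraries, with a fold change of 1.32 ± 0.0621 (SE, limma adjusted p = 2.95e-05). In neither did the groups overlap, while RPL22 was lower at -0.25. Of 60 mitochondrial ribosomal proteins, 15 were called higher, 2 lower and 43 did not pass, with a median of 0.12, and without the unmatched low libraries 4 were higher and 0 lower. In the stretches it was 4 of 4, among them MRPS7 and MRPL58 on chromosome 17 at 0.73 and 0.73, and outside 11 of 56 higher, with MRPL55 at 0.46.

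Genes of the response to unfolded proteins in the ER were called higher in part. When unfolded proteins gather in the ER, the sensors IRE1, PERK and ATF6 raise chaperones, and IRE1 splices the mRNA of XBP1. Of 22 genes of this response, 12 were called higher and 1, EDEM1, lower, with a median of 0.25. All 5 members in the stretches were higher, and outside 7 of 17 were, with a median of 0.21. Leaving out the unmatched low libraries, 5 of the 22 were called higher and 0 lower. XBP1 (chromosome 22, 28794555 to 28800597), in the stretch on chromosome 22, was at 139, 154, 140.0, 136 and 122.8 FPKM in the VDR-KD libraries and 82.97, 87.9, 79.7, 86.2 and 75.9 FPKM in the VDR-WT libraries, with a fold change of 0.74 ± 0.0479 (SE, limma adjusted p = 8.91e-05). PDIA4, a disulfide isomerase outside the stretches, was at 178, 203, 214, 186 and 175 FPKM in the VDR-KD libraries and 148, 156, 156, 122.6 and 157 FPKM in the VDR-WT libraries, with a fold change of 0.37 ± 0.0666 (SE, limma adjusted p = 0.00547). The groups were apart in both. MANF, a secreted ER protein, and HYOU1, an ER chaperone, were higher by 0.35 and 0.35. HSPA5, the main ER chaperone BiP, did not pass, at 0.14 (adjusted p = 0.139 from limma). HSP90B1, CALR and PDIA6, also on the list, did not pass either, at -0.14, -0.05 and 0.03.

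In the ATF4 arm of the stress response more genes were called lower than higher. Of 22 genes of the amino acid response, 8 were called lower and 2 higher, with a median of -0.19, and without the unmatched low libraries 4 and 2. TRIB3 (chromosome 20, 362835 to 397559), a pseudokinase raised by ATF4, was at 23.4, 22.7, 30.2, 24.1 and 24.7 FPKM in the VDR-KD libraries and 33.3, 31.5, 36.5, 37.6 and 35.6 FPKM in the VDR-WT libraries, with a fold change of -0.48 ± 0.0674 (SE, limma adjusted p = 0.0018). The groups did not overlap. NUPR1, a stress regulator, had a fold change of -0.53, and PHGDH, the first enzyme of serine synthesis, -0.41. The 2 higher genes encode the 2 chains of a transporter of leucine. SLC7A5 (chromosome 16, 87830023 to 87869488), in the second stretch on chromosome 16, was at 238, 413, 247, 242 and 217 FPKM in the VDR-KD libraries and 132, 197, 114, 136 and 102 FPKM in the VDR-WT libraries, with a fold change of 0.99 ± 0.0589 (SE, limma adjusted p = 6.56e-05). SLC3A2, its partner on chromosome 11 outside the stretches, was at 323, 386, 252, 312 and 259 FPKM in the VDR-KD libraries and 238, 239.5, 184, 220.0 and 181 FPKM in the VDR-WT libraries, with a fold change of 0.52. Neither overlapped between groups. SLC7A5 was highest with 1,25(OH)2D3 in each group, and SLC3A2 was so in VDR-KD. In VDR-WT SLC3A2 was about level with 1,25(OH)2D3 and ethanol, at 239.5 and 238 FPKM.

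In the cytosol 5 of 21 heat shock chaperones were called higher and 0 lower. HSPH1, of the HSP110 family, had a fold change of 0.42, DNAJB1, an HSP40, 0.43, HSPA4L 0.82 and DNAJA4, another HSP40, 3.62. None of the 11 analyzed subunits of the TRiC chaperonin and prefoldin, which fold actin and tubulin, was called with all libraries (1 higher without the unmatched low ones), with values from -0.19 for PFDN4 to 0.20 for PFDN2. Of 31 proteasome subunits 5 were higher (16.1%, beside 15.8% of all genes) and 0 lower, and outside the stretches 2 of 28 were. PSMD12 and PSMC5 on chromosome 17 and PSMD7 on chromosome 16 lie in the stretches, at 0.71, 0.60 and 0.57, and PSMC4 and PSMB6 outside them at 0.27 and 0.16. Genes of entry into the ER and glycosylation gave 10 higher and 1 lower of 36, 9 of them outside the stretches, or 2 and 0 without the unmatched low libraries, with SSR2, of the translocon, at 0.44.

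Targets of NRF2, which answers oxidative stress, gave 2 higher and 4 lower of 15, and both ferritin chains are among the 4. These are 13.3% and 26.7%, beside 15.8% and 12% of all genes. A separate list of iron handling gave 3 higher and 1 lower of 12, or 1 and 0 without the unmatched low libraries, with SLC39A14, a metal transporter, at 0.45. FTH1 (chromosome 11, 61959718 to 61967660), the heavy chain of ferritin, was at 2779, 3045, 3069, 2909 and 3268 FPKM in the VDR-KD libraries and 3971, 4198, 4285, 4016 and 4081 FPKM in the VDR-WT libraries, with a fold change of -0.45 ± 0.0440 (SE, limma adjusted p = 0.00042). FTL, the light chain, had a fold change of -0.42, and TXN, thioredoxin, -0.33. SAT1 (chromosome X, 23783173 to 23786226), which acetylates spermidine and spermine for export, was at 682, 347, 535, 654 and 665 FPKM in the VDR-KD libraries and 1338, 689, 1012, 1125 and 1153 FPKM in the VDR-WT libraries, with a fold change of -0.89 ± 0.0476 (SE, limma adjusted p = 4.14e-05). FTH1 and SAT1 were lower in every VDR-KD library, and SAT1 was lowest with 1,25(OH)2D3 in both groups. SMOX, which oxidizes spermine, was higher by 0.84. MT2A, a metallothionein in the first stretch on chromosome 16, was at 923, 1555, 1021, 954 and 962 FPKM in the VDR-KD libraries and 547, 768, 581, 464 and 579 FPKM in the VDR-WT libraries, with a fold change of 0.87.

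Among pigment genes and the lineage program more were called lower than higher. MITF directs the melanocyte program, with TYR, the rate-limiting enzyme of melanin, and PMEL, the fibril protein of melanosomes, among its targets. Of 19 genes of pigment synthesis 6 were called lower and 1 higher, with a median of -0.12, and of 19 lineage regulators and MITF targets 9 were lower and 3 higher, with a median of -0.16. The unmatched low libraries left out, 3 and 5 were lower. TYR (chromosome 11, 89177452 to 89295759) was at 123.3, 126, 146, 119 and 129 FPKM in the VDR-KD libraries and 174, 176, 189, 171 and 193 FPKM in the VDR-WT libraries, with a fold change of -0.49 ± 0.0474 (SE, limma adjusted p = 0.000382). MITF (chromosome 3, 69739435 to 69968337) was at 149.8, 269, 205, 143 and 143 FPKM in the VDR-KD libraries and 172, 284, 219, 156 and 174 FPKM in the VDR-WT libraries, with a fold change of -0.16 ± 0.0482 (SE, limma adjusted p = 0.0479). TYR did not overlap between groups, while MITF overlapped widely and was lower in each pair, near the threshold. BCL2A1, a survival gene raised by MITF, was at 67.3, 59.5, 71.1, 72.04 and 79.7 FPKM in the VDR-KD libraries and 135, 157, 158, 124 and 146 FPKM in the VDR-WT libraries, with a fold change of -1.04 ± 0.0866 (SE, limma adjusted p = 0.000209). MLPH, which ties melanosomes to myosin, had a fold change of -0.91, and LEF1, a partner of beta-catenin, -0.72. TBX2, 1 of the 3 higher lineage genes, was at 0.62. MLANA and DCT did not pass, at -0.13 and 0.01.

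Genes of the invasive, less differentiated melanoma state gave 5 higher and 0 lower of 16, all outside the stretches. TNC (chromosome 9, 115019578 to 115118257), the matrix protein tenascin C, was at 184, 91.9, 168, 179 and 163 FPKM in the VDR-KD libraries and 91.2, 35.5, 77.1, 98.8 and 87.2 FPKM in the VDR-WT libraries, with a fold change of 1.05 ± 0.0763 (SE, limma adjusted p = 0.000131). The groups overlapped by the 1,25(OH)2D3 library of VDR-KD, although TNC was higher in VDR-KD in each pair. CDH2, N-cadherin, had a fold change of 0.52, PRRX1, a mesenchymal factor, 0.49, WNT5A, a ligand of noncanonical Wnt signaling, 0.37, and CAV1, of caveolae, 0.37. Beyond these 5 and not counted with them, MET, the receptor of hepatocyte growth factor, was higher by 0.89 and EDNRB, the endothelin receptor, by 0.57. SNAI2, a factor of neural crest cells and likewise not counted, was lower at -0.75. According to the study, EDNRB matters for how melanocytes develop and differentiate, and has also been tied to melanoma progression. Whether the rises of MET and EDNRB belong to the invasive state was not tested. Without the treatment block 1 of the 16 was called, and without the unmatched low libraries 2.

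Feedback genes of the MAPK pathway limit RAS and ERK signaling and are raised by it. Of 20, 7 were called lower, 1 higher and 12 did not pass. Without any 1 pair 3 or 4 were lower, and without the unmatched low libraries 2. DUSP6 (chromosome 12, 89347232 to 89353271), an ERK phosphatase, was at 98.4, 108, 117, 119.5 and 126 FPKM in the VDR-KD libraries and 132, 136, 142, 145 and 169.9 FPKM in the VDR-WT libraries, with a fold change of -0.35 ± 0.0478 (SE, limma adjusted p = 0.00173). SPRY4, SPRY2 and SPRED2, inhibitors of RAS activation, had fold changes of -0.54, -0.23 and -0.30. In TGF-beta and BMP signaling 9 of 21 were called lower and 2 higher, or 4 and 0 without those libraries. BMPR2, a receptor, was at 13.9, 7.62, 9.68, 13.1 and 11.7 FPKM in the VDR-KD libraries and 18.3, 14.1, 17.9, 22.2 and 18.4 FPKM in the VDR-WT libraries, with a fold change of -0.71. The inhibitors SKI and SMAD7 were lower at -0.60 and -0.60 and the target ID2 at -0.32, while the ligand TGFB1 was higher by 0.38. A Wnt list gave 5 of 17 higher and 4 lower, with the antagonist SFRP1 at -0.80. It holds TCF4, a basic helix-loop-helix protein that is no Wnt effector, as 1 of the 5, at 1.05, and without any 1 pair 1 to 3 were higher.

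Integrins attach cells to the matrix. Of 10, 5 were called higher, 0 lower and 5 did not pass, with a median of 0.26, and 3 were higher without the unmatched low libraries. ITGA5 (chromosome 12, 54395261 to 54419460), the alpha subunit of a fibronectin receptor, was at 34.2, 27.2, 31.5, 34.3 and 33.8 FPKM in the VDR-KD libraries and 23.9, 18.7, 21.2, 25.4 and 20.2 FPKM in the VDR-WT libraries, with a fold change of 0.56 ± 0.0649 (SE, limma adjusted p = 0.000867). ITGB1, the common beta subunit, had a fold change of 0.31 and ITGA3, in the stretch on chromosome 17, 0.54. Other matrix proteins gave 8 higher and 2 lower of 19, or 5 and 2 without those libraries, with SDC1, a syndecan, at 1.31, VCAN, versican, at 0.86 and LGALS1, a galectin in the stretch on chromosome 22, at 0.77. Collagens and the basement membrane were split, with 4 of 17 higher and 6 lower, or 1 and 3 without them. COL6A1 and COL6A2, chains of collagen VI, were higher by 0.43 and 0.82, and HSPG2, perlecan, and LAMC3, a laminin chain, lower at -0.92 and -0.91. Among adhesion molecules 6 of 13 were higher and 2 lower, but 2 or 3 were higher without any 1 pair, with CADM4 at 1.24 and NCAM1 at 0.77.

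Interferon-stimulated genes were divided. Of 21, 8 were called lower and 3 higher, with a median of -0.13, and 5 and 1 without the unmatched low libraries. IFI6 (chromosome 1, 27666061 to 27672218), an ER protein of the antiviral response, was at 43.6, 34.2, 46.4, 35.2 and 44.2 FPKM in the VDR-KD libraries and 66.03, 59.2, 67.3, 60.2 and 58.1 FPKM in the VDR-WT libraries, with a fold change of -0.62 ± 0.0704 (SE, limma adjusted p = 0.000791). IFIT3, which binds viral RNA complexes, was at 17.2, 14.8, 16.7, 21.9 and 18.9 FPKM in the VDR-KD libraries and 10.5, 9.29, 11.9, 9.80 and 12.05 FPKM in the VDR-WT libraries, with a fold change of 0.73 ± 0.101 (SE, limma adjusted p = 0.00176). Both genes lay apart between groups, in opposite directions. IFI6 lies among 50 neighboring genes from MAP3K6 to TRIM62 with a median of -0.19, of which 18 were called lower and 1 higher. OAS2, an RNA sensor, was lower at -1.19, and BST2, which tethers viruses, was the lowest of the 8 at -5.30. In MHC class I presentation 3 of 14 were higher and 2 lower, with B2M, the light chain, at -0.29 and HLA-C at 0.38. Reads of HLA genes may be shared between them.

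**Figure D4:**
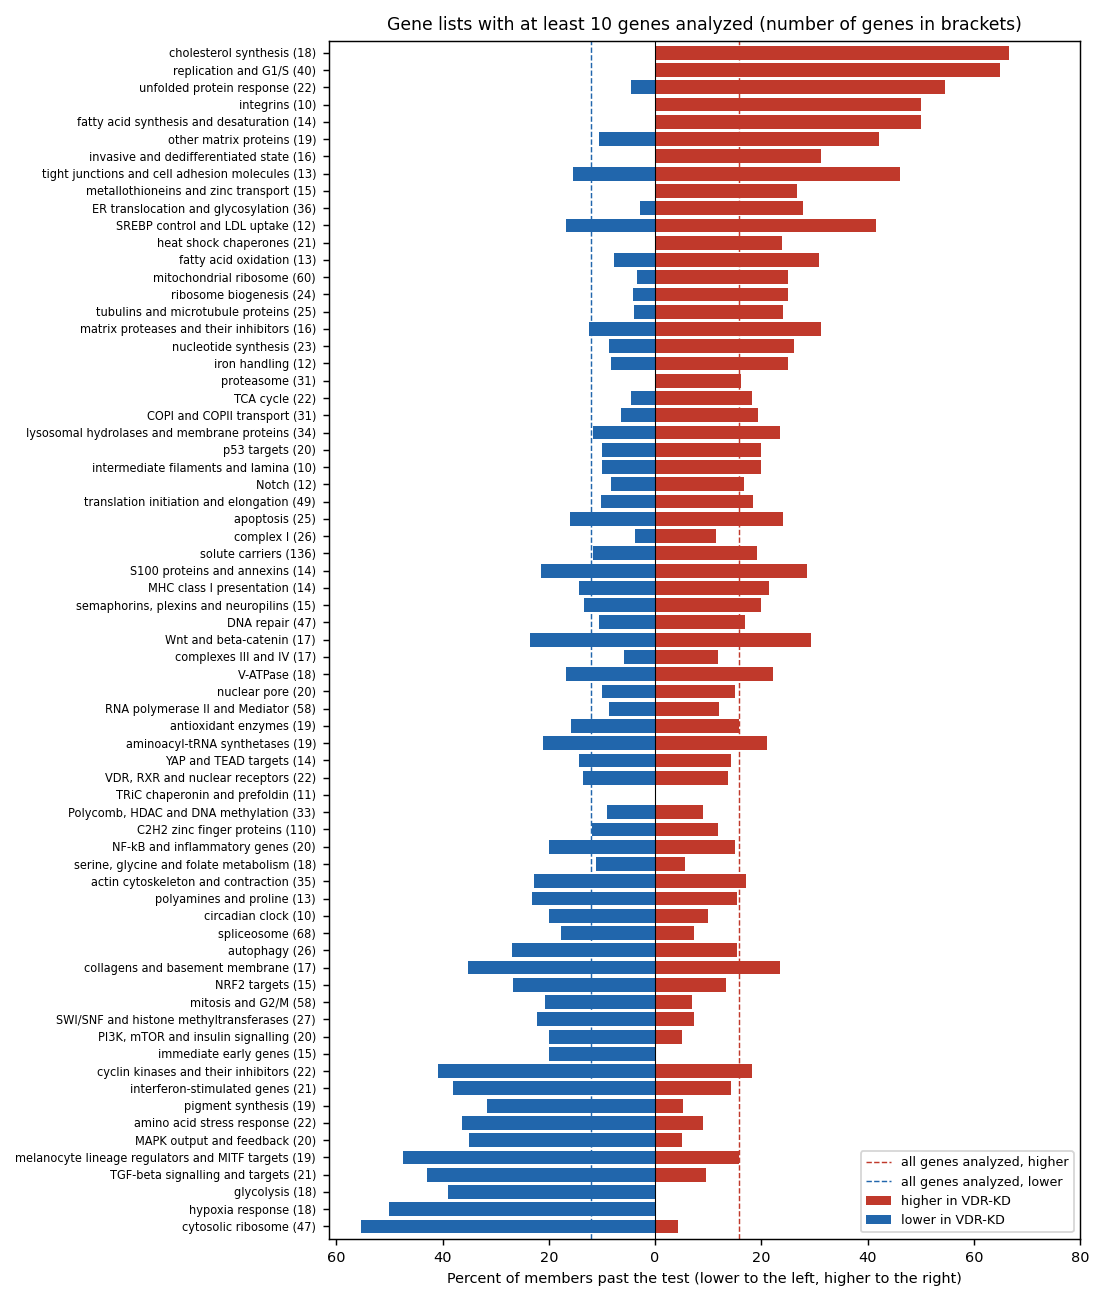
Percent of the analyzed members of each gene list that were called lower (blue, to the left) or higher (red, to the right) in VDR-KD, for lists with at least 10 genes, whose number is in brackets. Dashed lines mark the share of all analyzed genes, 12% lower and 15.8% higher. Cholesterol synthesis and replication reach furthest to the right and the cytosolic ribosome and the hypoxia response furthest to the left.

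Other lists are given by their counts. Without the unmatched low libraries most of these counts fell by more than 1.5 times, as did those over all genes. Nucleoporins gave 3 higher and 2 lower of 20, and the 3, NUP93, NUP85 and NUP50, all lie in stretches. Of 23 genes of nucleotide synthesis 6 were higher and 2 lower, 4 of the 6 in stretches. DNA repair gave 8 higher and 5 lower of 47, with FANCA and RAD51C in stretches at 0.73 and 0.74 and ATM, the kinase that signals DNA breaks, lower at -0.66. Among p53 targets 4 of 20 were higher and 2 lower, and among genes of apoptosis 6 of 25 and 4, where FDXR and TRADD, at 1.32 and 1.24, lie in stretches. Spliceosome genes gave 5 higher and 12 lower of 68, Polycomb and histone deacetylase genes 3 and 3 of 33 with EZH2, the H3K27 methyltransferase, at 0.36, and RNA polymerase II with Mediator 7 and 5 of 58.

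Of 9 cystatins and serpins 4 were lower and 0 higher, with CST1, CST2, SERPINF1 (-0.78), also called PEDF, and SERPINH1 (-0.57), a collagen chaperone, and CST1 and CST2 may share reads. Zinc finger genes of the ZNF family, a class of DNA-binding repressors, gave 13 higher and 13 lower of 110 (11.8% each), near the shares of all genes. ZNF331 (chromosome 19, 53519527 to 53580269) was at 10.5, 9.91, 12.6, 7.43 and 8.12 FPKM in the VDR-KD libraries and 52.3, 53.5, 45.9, 31.4 and 35.3 FPKM in the VDR-WT libraries, with a fold change of -2.15 ± 0.0892 (SE, limma adjusted p = 1.82e-05). Solute carriers gave 26 higher and 16 lower of 136 (19.1% and 11.8%), and outside the stretches 17 and 16 of 125. Autophagy genes gave 4 higher and 7 lower of 26, and lysosomal genes 8 and 4 of 34, with CTSH, a cathepsin, at 0.90 and CD63, a tetraspanin of late endosomes, at -0.43. Actin and contraction gave 6 higher and 8 lower of 35, and tubulins and their partners 6 and 1 of 25. Of 22 nuclear receptors 3 were higher and 3 lower, with RXRB, a partner of the VDR, at -0.45. Known targets of the VDR gave 1 higher and 1 lower of 9, SLC37A2 at 0.53 and TXNIP, which binds thioredoxin, at -0.56.

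By size and steadiness together, measured by limma's t, the genes that stood out were of mixed roles. Besides those above they were SYNGR1 (1.92), of synaptic vesicles and in the stretch on chromosome 22, MAGEA6 (2.07), a cancer-testis antigen close in sequence to MAGEA3, ZNF114 (1.73), IGFBP7 (1.31), which binds growth factors, and LPL (1.77), lipoprotein lipase. On the lower side they were the cystatins CST2 (-3.00) and CST1 (-2.88), inhibitors of cysteine proteases close in sequence, PMP2 (-2.09), a myelin protein, CYP2J2 (-1.81), an epoxygenase, FOXP1 (-1.29), a forkhead factor, METTL9 (-0.63), a methyltransferase, PLXNC1 (-0.84), a semaphorin receptor, and WSB1 (-0.70), part of a ubiquitin ligase. Among the more abundant genes, above 50 FPKM, ADGRG1 (chromosome 16, 57610652 to 57665580), an adhesion receptor of melanoma cells in the first stretch on chromosome 16, was at 224, 259.8, 295, 293 and 256 FPKM in the VDR-KD libraries and 144, 108, 108, 145 and 130.3 FPKM in the VDR-WT libraries, with a fold change of 1.07 ± 0.103 (SE, limma adjusted p = 0.000382). Also among them, SPRR2D, of the cornified envelope and close to its paralogs, was higher by 1.22. FABP7, a fatty acid binding protein of neural crest cells, and HIBCH, an enzyme of valine breakdown, were lower at -0.91 and -1.06.

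**Figure D5:**
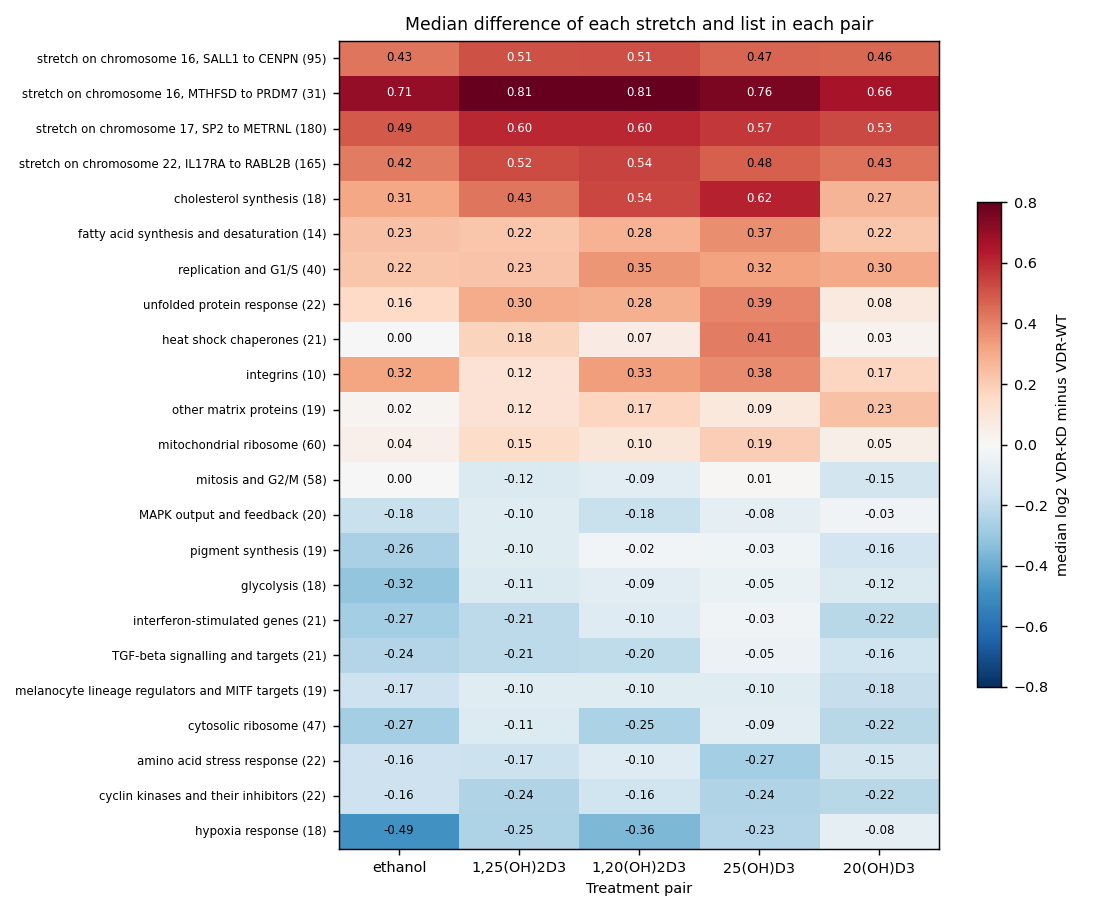
Median log2 difference between VDR-KD and VDR-WT (color and printed value) of the 4 stretches and 19 gene lists, by rows with the number of genes in brackets, in each of the 5 treatment pairs, by columns. The stretches lie between 0.42 and 0.81 in every pair, and the lists differ more between pairs, as with the hypoxia response from -0.49 with ethanol to -0.08 with 20(OH)D3.

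Pairs differed in how far they followed the common pattern. Over 1.5-fold, between 401 and 544 genes were higher and between 208 and 313 lower in a single pair. Across genes, which are not independent, the difference in 1 pair and the mean of the other 4 had a Pearson r of 0.63 to 0.75, lowest with 1,20(OH)2D3. The most variable differences were those of NT5DC4, ARC, HSPA6, MMP3, CRYAB and KRTAP19-1. NT5DC4, whose function is not well known, was at 0.117, 0, 13.4, 5.06 and 5.97 FPKM in the VDR-KD libraries and 16.8, 4.94, 0, 0 and 4.50 FPKM in the VDR-WT libraries, so that its difference changed sign between pairs. CRYAB, a small heat shock protein, was at 25.3, 5.60, 3.55, 34.01 and 36.1 FPKM in the VDR-KD libraries and 11.2, 2.92, 10.2, 45.2 and 3.56 FPKM in the VDR-WT libraries, and none of the 6 passed the test.

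Level and length moved slightly with the fold change. The median was 0.04 for the least abundant of 5 equal groups of genes and -0.03 for the most abundant, and in the latter 19.6% were called lower and 15.8% higher, against 7.37% and 14.8% in the former. By exonic length the median ran from 0.04 in the shortest to -0.04 in the longest of 5 groups. These shifts are small beside those of the stretches, of sterol synthesis and of replication. Falls in lists of abundant genes, such as the cytosolic ribosome (median -0.18), are to be read beside the 19.6% called lower in the most abundant group. The part of level and length in the results was not tested.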

How the data were processed

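RNA of 10 WM164 libraries, 1 for each of 2 genotypes and 5 treatments, was sequenced. The submitters' processing notes name STAR 2.7.1a, Cufflinks 2.2.1 and Cuffdiff, and gene identifiers were those of GENCODE 29. The deposited values were FPKM, which the authors made per gene entry with 1 column a library, and counts and depth were not given, so limits on precision from depth are unknown. The FPKM of a library summed to 577696 to 651658.

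Values were log2 transformed after adding 0.1. Entries with a mean of at least 0.5 FPKM (14689) were fitted with limma 3.58.1 in R 4.3.3, with genotype, a block for treatment, an intensity trend and 4 residual degrees of freedom, and p-values were adjusted by Benjamini and Hochberg over all of them. Pairs come from the treatment in the labels. Deviations from the genotype means correlated within a treatment by 0.33, 0.66, -0.02, 0.36 and 0.16, in the order of the report. In 2 of the 5 another treatment correlated more, at 0.22 for VDR-KD 1,20(OH)2D3 with VDR-WT 20(OH)D3 and 0.29 for VDR-KD 20(OH)D3 with VDR-WT 25(OH)D3. Descriptions used Python 3.11.15 with pandas 2.3.3. Promoters were matched by symbol to RefSeq (GRCh38.p14).

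Members and gene lists were chosen with earlier results of these data known. Genes named were taken from those with the 12 highest and 12 lowest t, the 8 largest rises and falls above 50 FPKM, up to 4 members a list by p, the 6 most variable differences, the markers and the genes of extreme stretches. Others, among them MSMO1, MVK, CDC6, POLE2, MCM3, MCM6, TNC, XBP1, GRB2 and H3F3B, were chosen after their values were seen, and names unrelated to their family were removed from 2 lists after their members were seen. Alternatives covered the added constant, filters, block, trend, scaling and left-out pairs. Genes in merged entries were left out, and reads shared by close paralogs, such as MAGEA6 or ribosomal proteins, remain uncertain.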

Additional observations from a re-analysis of the deposited data

Results flagged for a closer look

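The median paired difference of the 18 analyzed glycolysis genes stood apart with ethanol, at -0.315. In the other 4 pairs it was -0.113 with 1,25(OH)2D3, -0.0909 with 1,20(OH)2D3, -0.0528 with 25(OH)D3 and -0.117 with 20(OH)D3. The gap to the nearest pair was 0.757 of the range, above Dixon's critical value for 5 values. It was 1 of 14 items examined in this way, and chance passes that limit in about 1 of 20. Each pair is 1 library a side, so this was not repeated.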

How the results depend on the processing

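Of the 308 named genes past the test, 183 kept their call in every alternative and 0 reversed. Without the unmatched low libraries alone, 114 of the 308 lost their call. These genes were named by their values in the fit of all libraries, and the alternatives reuse those libraries. A lack of reversals is therefore no independent check. The 1201 higher and 912 lower calls became 1006 and 644 without the replicate block, 860 and 580 without the trend, 931 and 675 without a filter, 419 and 234 without the unmatched low libraries (VDR-KD 1,20(OH)2D3 and VDR-WT 20(OH)D3), and 659 and 430 at an adjusted p under 0.01 (limma throughout). Without 1 treatment pair at a time they ranged from 802 to 944 and from 555 to 685. Median centering gave 1013 higher and 1211 lower (45.5% higher) and upper quartile scaling 1058 and 1143 (48.1%), against 56.8% as deposited. Only genes outside the stretches gave 813 and 909 (47.2%), an alternative chosen after seeing the data, as were other limits for the stretches. The genes in the stretches numbered 580 with a limit of 0.2 and 482 with 61 neighbors. VDR ranged from 0.63 to 0.88 without 1 pair and was 0.52 (adjusted p = 0.0562 from limma) without the unmatched low libraries. The causes were not tested. With 4 residual degrees of freedom and no depth given, small changes of low genes could not be resolved.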
